A study of Mus musculus with 7 samples.

Results

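The genes described here encode the hydrolases of the lysosome, its membrane proteins and the vacuolar proton pump (V-ATPase) that acidifies it. They are a named list of 32 lysosomal genes together with each gene whose symbol begins with Atp6v, taken as the brightest probe set with 1 gene symbol by its mean over the 7 arrays. A probe set is a group of short array probes for the same transcript. Of the 32 listed genes 31 had such a probe set, and Cd63 was not analysed here. With 19 Atp6v genes this gave 50 of the 12393 genes on the array. A filter on low values, at the 40th percentile of the mean over all arrays, left 46 of them among 8077 genes tested, and each of the 46 was above the background level on 7 of 7 arrays. Atp6v0a4, Atp6v1b1, Atp6v1c2 and Atp6v1e2 lay below the filter, with median deposited signals of 13.2, 4, 3.7 and 21.5 against a background level of 13.64, and carry no comparison.

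RNA was measured in LSK cells from femoral and tibial marrow of C57BL/Ka-CD45.2:Thy-1.1 mice. LSK cells lack lineage markers, carry Sca-1 and c-Kit, and contain the stem cells and early progenitors of blood. The 4 KO samples (numbers 4 to 7) came from Lkb1 L/L mice that carried rosa26CreERT2, and the 3 WT samples (numbers 5 to 7) from Lkb1 L/L mice without it. Both groups received tamoxifen for 5 days and were sorted 1 day later, at 15000 to 20000 cells per sample, and about 10 ng of RNA was amplified. Both groups thus carried the floxed allele and tamoxifen, and only KO carried the recombinase. Rosa26 is active in most tissues, so deletion was not limited to blood cells by the promoter. The labels give no age beyond adult, and do not say whether samples came from separate animals. A p-value here is thus set against sample-to-sample spread alone, part of which may be technical.

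Values are log2(signal + 16) after quantile normalization unless stated otherwise, and differences are KO minus WT. Stk11, the gene of LKB1, was at 7.18, 6.98, 6.68 and 6.44 in KO 4 to 7 and at 7.63, 7.16 and 7.35 in WT 5 to 7. The difference was -0.56 with overlapping groups (limma adjusted p = 0.117), and whether this probe set lies in the deleted part is not known here, so it does not check the labels. Arrays of KO were brighter as deposited, with trimmed means of 362.5 to 428 against 230.3 to 342.4 (exact permutation p = 0.0286, the smallest possible). The Actb control probe sets, whose 3' to 5' ratio depends on RNA length, gave ratios of 12.6 to 13.11 on WT arrays and 11.41 to 12.29 on KO arrays (p = 0.0571, exact permutation test). Kit, the c-Kit receptor gene, averaged 10.40 ± 0.04 in the 4 KO samples and 10.83 ± 0.16 in the 3 WT samples (SD). It is 1 of 12 measured genes of LSK cells, none of them at background on all arrays, whose mean level was 9.89 to 10.03 in KO against 10.23 to 10.29 in WT and turned to a difference of 0.06 in the signals as deposited. The mean level over 14 of 15 genes of mature granulocytes ran from 8.0 to 8.50 in KO and from 9.21 to 9.79 in WT. Of the 13 tested, 11 were lower in KO (limma adjusted p under 0.05), against 2.96% of all genes. Itgam and Csf3r lay above 0, at 0.40 without overlap (limma adjusted p = 0.0663) and at 0.05. Cd177, among the 11, had a KO mean of 5.08, below the filter threshold of 5.54, and was tested only through its higher WT values. The mean level over 20 genes of monocytes and macrophages, cells rich in lysosomes, ran from 6.34 to 6.60 in KO and from 6.39 to 6.47 in WT, a difference of 0.025 (exact permutation p = 0.771). In that list Marco was at background on each array and Lyz2 was the 1 gene of 12 tested that passed, lower in KO (-0.81). Csf1r, the brightest of the list, went the other way at 0.75 without overlap (limma adjusted p = 0.0822). The rest lay on both sides of 0, so the mean level hides opposite shifts. The list of early myeloid progenitor genes lay between 12.06 and 12.31 in KO and between 11.65 and 11.84 in WT. The erythroid list ran from 6.18 to 6.65 in KO and from 7.15 to 7.24 in WT, and the lists of dendritic, B and T or NK cells overlapped between the groups. In the T or NK list 0 of 6 measured genes passed the filter, and Cd3e and Cd3g were at background on each array. In the B list 2 of 7 passed it, and Cd79a and Pax5 were at background. Overlap at such low levels says little about B, T or NK cells. The list of mast cells and basophils ran from 7.18 to 7.58 in KO and from 6.92 to 7.10 in WT, with Cpa3 higher. The megakaryocyte list ran from 7.61 to 7.93 in KO and from 8.04 to 8.13 in WT, with Plek lower, and turned to a difference of 0.00334 as deposited. The list of stroma and endothelium, near background in its mean, ran from 5.34 to 5.45 in KO and from 5.46 to 5.78 in WT. Its 1 tested gene, Col1a2, averaged 7.81 in KO and 8.75 in WT and was lower in KO (limma adjusted p = 0.0425). The exact permutation p was 0.0286 for the LSK, granulocyte, myeloid progenitor, erythroid and stroma lists. It was 0.0571 for the megakaryocyte and mast cell lists. Adjusted over the lists (Benjamini-Hochberg), these permutation p-values were 0.0629 and 0.0898. For the dendritic, B and T or NK lists the exact permutation p was 0.314 to 0.943. The part of these differences in the results on lysosomal genes was not tested. In such bulk samples, fewer cells of a type and less RNA per cell cannot be told apart.

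Lysosomes break down proteins, sugar chains, lipids and nucleic acids delivered by endocytosis and autophagy, with hydrolases that work in an acid lumen. The V-ATPase keeps that lumen acid: its V1 part in the cytosol splits ATP, and its V0 part in the membrane carries protons. The surface of the lysosome is also where mTORC1 is switched on through the Ragulator and Rag proteins, and where LKB1 is recruited with axin to activate AMPK. Active mTORC1 holds the transcription factor TFEB in the cytoplasm. TFEB and its relatives TFE3, MITF and TFEC bind a palindromic element around the E-box CACGTG in promoters of lysosomal genes, and stem cells in the marrow are known to depend on lysosomal activity for quiescence.

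That element was searched for in RefSeq promoter windows of the mouse assembly GRCm38.p6, which run from 250 bases before to 50 bases after each start. Windows were matched for 37 of the 46 genes tested, and the other 9 were Asah1, Npc1, Ctsh, Ctsb, Atp6v0a2, Atp6v1b2, Atp6v1g1, Atp6v1h and Atp6v1c1. Both motifs searched, CACGTG and the longer TCACGTGA that contains it, read the same on both strands. A gene was counted once, as positive if any window of it held the motif. CACGTG was present for 13 of the 37 genes (35.1%), against 12.1% of 6637 tested genes with a window and 8.09% of 27025 genes in all. TCACGTGA was present for 8 of the 37 (21.6%), against 2.26% of tested genes and 1.12% of all. The 8 were Atp6v0d1, Atp6v0e, Atp6v1a, Cln3, Ctsa, Ctsd, Gla and Mcoln1. The copies that lie before the start are printed below with their flanks, 5′ to 3′ on the strand of the gene and with the motif in capitals, because they are the sequence feature these genes share. They begin 132 bases before the start in Atp6v1a, 122 in Cln3, 13 in Ctsa, 99 in Ctsd, 46 in Mcoln1, and 195 and 228 in Gla.
Atp6v1a, V1 subunit A, chr16:44139364-44139411, minus strand: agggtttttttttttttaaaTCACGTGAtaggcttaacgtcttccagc
Cln3, lysosomal membrane protein, chr7:126583331-126583378, minus strand: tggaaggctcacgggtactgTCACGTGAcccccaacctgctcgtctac
Ctsa, cathepsin A, chr2:164833740-164833772, plus strand: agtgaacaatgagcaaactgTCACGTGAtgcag
Ctsd, cathepsin D, chr7:142387899-142387946, minus strand: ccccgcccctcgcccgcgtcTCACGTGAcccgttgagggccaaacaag
Gla, α-galactosidase A, nearer copy, chrX:134601173-134601220, minus strand: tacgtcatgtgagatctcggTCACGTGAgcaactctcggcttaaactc
Gla, α-galactosidase A, farther copy, chrX:134601206-134601253, minus strand: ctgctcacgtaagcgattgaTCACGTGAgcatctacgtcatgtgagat
Mcoln1, lysosomal calcium channel, chr8:3500453-3500500, plus strand: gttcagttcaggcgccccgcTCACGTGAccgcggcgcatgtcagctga
The genes with the longer motif did not share a direction. Their median difference was -0.01, with 4 of 8 above 0, against -0.03 and 11 of 29 above 0 in those without it. For CACGTG the medians were 0.01 with 7 of 13 above 0, and -0.04 with 8 of 24 above 0. Among the 8 with TCACGTGA, differences ran from -0.24 in Cln3 to 0.64 in Gla.

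Lysosomal genes as a group stayed close to the median gene 1 day after tamoxifen. Of the 46 tested, 1 fell in KO and none rose (limma, Benjamini-Hochberg adjusted over 8077 genes at a threshold of 0.05), a share of 2.17% against 5.44% of all genes tested. By direction, 2.48% of all genes rose and 2.96% fell. The gene that fell was Atp6v1b2, a V1 subunit of the proton pump. The median difference of the 46 was -0.02, as was that of all 8077 genes, and single differences ran from -0.39 to 0.64, with 18 above 0 and 28 below. At an unadjusted p under 0.05, limma gave 9 of the 46 (19.6%) and 2046 of all genes (25.3%).

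The precision allows a bound on most of these differences, for the probe set used and in the quantile scale alone. For 45 of 46 the 95% interval of the difference lay within 1 log2 unit of 0, a 2-fold change, and the exception was Gla with an upper bound of 1.02. For 29 of 46 it lay within 0.5. The same held for 7616 and 4043 of all 8077 genes, and the median standard error was 0.107 for the lysosomal genes and 0.129 for all. These intervals do not cover the spread between probe sets or scalings. Some further probe sets lay outside the interval of their gene, such as 1 of Atp6v0a1 at 0.87 (interval -0.32 to 0.21). The 4 KO values lay above the 3 WT values for Gla, Gusb, Hexa and Ctsz (11.4% of all genes did so). They lay below for Asah1, Laptm4a, Scarb2, Tpp1, Atp6v1b2 and Atp6v1d (12.7% of all genes). Together these were 10 of 46, or 21.7%, against 24.1% of all genes.

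**Figure D1:**
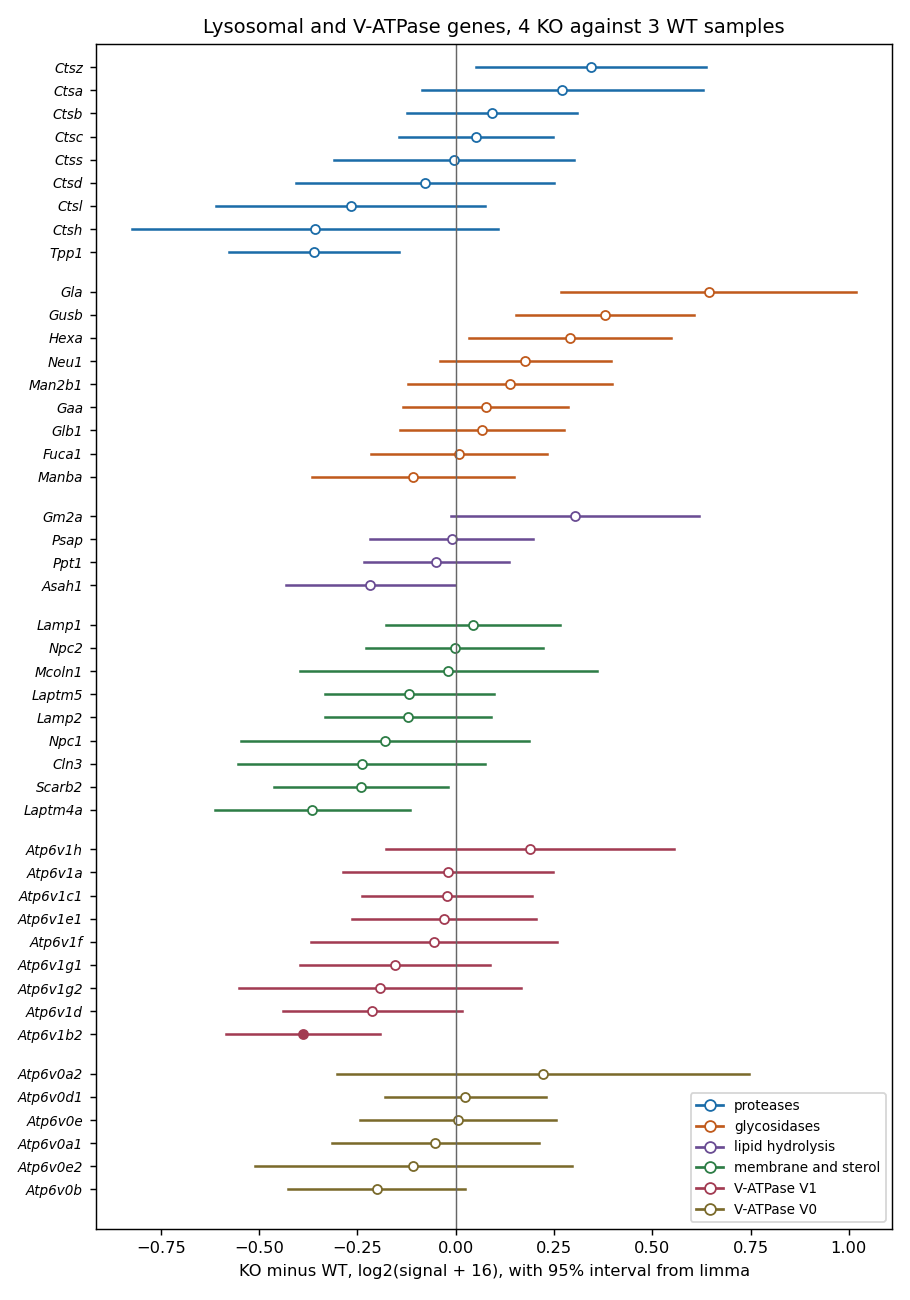
Difference between 4 KO and 3 WT samples for each of 46 tested lysosomal and V-ATPase genes, in log2(signal + 16) after quantile normalization, with the 95% interval from limma as bars, colours for the classes of genes and a filled point for the gene past the adjusted threshold. Atp6v1b2 at -0.39 is the only filled point, and 45 of 46 intervals stay within 1 unit of 0, while in the signals as deposited 45 of 46 differences lie above 0.

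**Figure D2:**
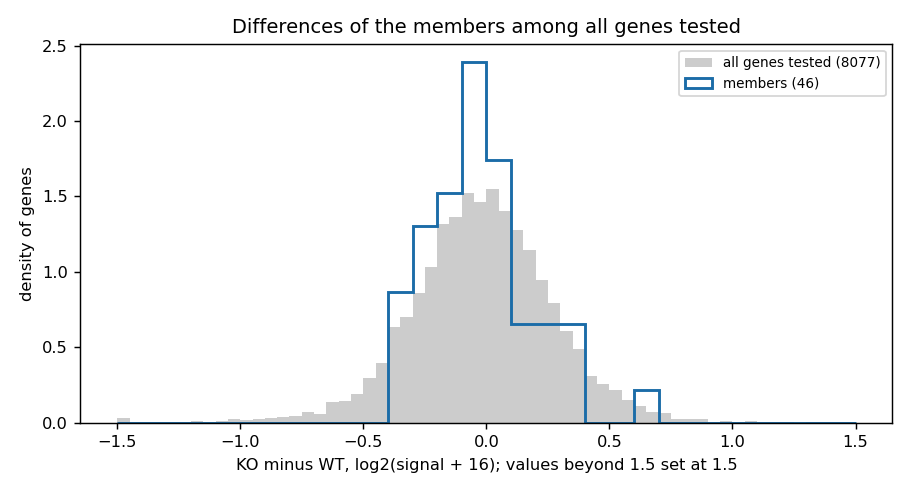
Density of differences (KO minus WT, log2) over 8077 tested genes in grey and over the 46 lysosomal and V-ATPase genes as a blue outline. Both centre on -0.02, the outline ends at -0.39 and 0.64, and the grey bars reach beyond it on both sides.

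Directions depend on how the arrays were put on 1 scale. As deposited, all genes were shifted up in KO by a median of 0.34, 45 of the 46 lysosomal genes lay above 0 (Ctsh, at -0.13, did not), and 7 passed the threshold upward: Hexa, Gm2a, Gusb, Ctsz, Ctsa, Atp6v0a2 and Gla. In that scaling the same share of all genes was 16.9% upward and 0.57% downward, with 1368 and 46 genes. With median centring 28 lysosomal genes lay above 0 and 18 below, and Hexa, Gusb and Gla passed upward, beside 544 genes up and 169 down in all. With cyclic loess, 21 lay above 0 and 25 below, and Atp6v1b2 alone passed. The median of the 46 relative to that of all genes was 0.05 as deposited and with median centring, and 0.01 with loess. A direction given below is therefore a position relative to the median gene of these arrays.

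The proteases were spread around 0. None of the 9 passed, 4 were above 0 and 5 below, and their median was -0.00. Tpp1, tripeptidyl peptidase 1, which trims peptides from their amino end, was at 10.30, 10.35, 10.25 and 10.09 in KO 4 to 7 and at 10.57, 10.59 and 10.66 in WT 5 to 7. Each KO value lay below each WT value. The difference was -0.36 ± 0.09 (SE) and just missed the threshold (limma adjusted p = 0.0618), and it was 0.07 as deposited.

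Ctsz, the carboxypeptidase cathepsin Z, was at 9.79, 9.81, 9.61 and 9.65 in KO and at 9.53, 9.09 and 9.50 in WT. The groups did not overlap, WT 6 was the lowest of the 7, and the difference was 0.34 ± 0.13 (limma adjusted p = 0.143), or 0.20 without WT 6. Ctsl, the endopeptidase cathepsin L, was at 8.48, 8.82, 8.63 and 8.98 in KO and at 9.21, 8.79 and 8.98 in WT. Its groups overlapped (-0.27 ± 0.15, limma adjusted p = 0.306). The aspartic protease cathepsin D (Ctsd) differed by -0.08 with a 95% interval of -0.41 to 0.25, and cathepsin B (Ctsb), an abundant cysteine protease, by 0.09 with an interval of -0.13 to 0.31. Cathepsin C (Ctsc), which activates the serine proteases of myeloid granules, differed by 0.05, and cathepsin S (Ctss), which cuts the invariant chain of class II molecules, by -0.00. The other 2 were cathepsin A (Ctsa), which also protects other lysosomal enzymes, at 0.27, and the aminopeptidase cathepsin H (Ctsh) at -0.36, both with overlapping groups.

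The glycosidases, which remove sugars from glycoproteins and glycolipids, lay mostly above 0. Of 9 genes 8 were above 0, 1 was below and none passed, with a median of 0.14. For these probe sets the position was kept in each scaling: the median was 0.51 as deposited, 0.24 with median centring and 0.16 with loess. It was 0.15 to 0.18 above that of all genes. Further probe sets above the filter did not share this side: Gusb gave 0.57, but Man2b1 -0.49, Fuca1 -0.29 and Gaa -0.04. Gla, α-galactosidase A, which clears globotriaosylceramide, was at 6.62, 6.92, 6.99 and 6.92 in KO and at 6.26, 6.52 and 5.87 in WT. Each KO value lay above each WT value, and WT 7 was the lowest. Its difference of 0.64 ± 0.16 was the widest of the 46 and missed the threshold by little (limma adjusted p = 0.0586). As deposited, its signals were 101.8, 117.4, 115.8 and 109.1 in KO and 62.4, 70.0 and 30.1 in WT.

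Gusb, β-glucuronidase, which acts on glycosaminoglycans, was at 9.92, 9.74, 9.86 and 9.83 in KO and at 9.56, 9.30 and 9.51 in WT. The groups did not overlap, at 0.38 ± 0.10 (limma adjusted p = 0.0605). Hexa, the α subunit of β-hexosaminidase, which degrades ganglioside GM2, was at 11.26, 11.26, 11.54 and 11.51 in KO and at 11.17, 10.98 and 11.15 in WT. The lowest KO value exceeded the highest WT value by a narrow margin, and the difference was 0.29 ± 0.11 (limma adjusted p = 0.155). The sialidase Neu1 (0.18), the α-mannosidase Man2b1 (0.14), the α-glucosidase Gaa (0.08), the β-galactosidase Glb1 (0.07) and the fucosidase Fuca1 (0.01) followed with overlapping groups. The β-mannosidase Manba was the 1 gene below 0, at -0.11.

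Among the 4 genes of lipid hydrolysis none passed and 3 were below 0, with a median of -0.03. Asah1, acid ceramidase, was at 10.15, 10.10, 9.93 and 10.01 in KO and at 10.33, 10.19 and 10.27 in WT. Its groups did not overlap, and the difference was -0.22 ± 0.09 (limma adjusted p = 0.194; 0.22 as deposited). Gm2a, the activator protein that presents ganglioside GM2 to β-hexosaminidase A, was at 10.47, 10.93, 10.63 and 10.59 in KO and at 10.18, 10.54 and 10.34 in WT. KO 4 lay below WT 6, so the groups overlapped, at 0.30 ± 0.14 (limma adjusted p = 0.213). Ppt1, the thioesterase that removes palmitate from proteins, was at 10.17, 10.24, 10.20 and 10.24 in KO and at 10.30, 10.25 and 10.24 in WT, a span of little width (-0.05 ± 0.08, limma adjusted p = 0.744). Psap, the precursor of the saposin cofactors, differed by -0.01.

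The membrane and sterol genes lay mostly below 0, with 8 of 9 below, none past the threshold and a median of -0.12. Their median turned to 0.16 with 9 of 9 above 0 in the signals as deposited, and was -0.11 with median centring and -0.18 with loess. Relative to all genes it was -0.11 to -0.18 in the 4 scalings, which used the same probe sets. Further probe sets above the filter gave 0.33 for Scarb2, 0.16 and 0.27 for Laptm5 and 0.08 for Mcoln1. They gave 0.04, -0.11 and 0.11 for Lamp2 and -0.04 for Npc2, so the side of this class depends on the probe set used. Laptm4a, a transmembrane protein of late endosomes and lysosomes, was at 9.53, 9.46, 9.53 and 9.35 in KO and at 10.01, 9.83 and 9.66 in WT. The groups did not overlap (-0.36 ± 0.11, limma adjusted p = 0.084; 0.08 as deposited).

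Scarb2, also called LIMP-2, the receptor that carries β-glucocerebrosidase to lysosomes, was at 10.45, 10.57, 10.41 and 10.30 in KO and at 10.63, 10.76 and 10.63 in WT. Each KO value was below each WT value (-0.24 ± 0.10, limma adjusted p = 0.166; 0.19 as deposited). Cln3, the protein lost in juvenile neuronal ceroid lipofuscinosis, was at 8.54, 8.42, 8.19 and 8.49 in KO and at 8.69, 8.87 and 8.40 in WT. WT 7 lay within the KO range (-0.24 ± 0.14, limma adjusted p = 0.316). The major coat proteins of the lysosomal membrane, Lamp1 and Lamp2, differed by 0.04 (95% interval -0.18 to 0.26) and -0.12 (-0.33 to 0.09). The cholesterol exporters Npc1 and Npc2 differed by -0.18 and -0.00, the calcium channel gene Mcoln1 by -0.02, and Laptm5, a transmembrane protein of blood cells, by -0.12. Each of these 6 had overlapping groups.

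The V-ATPase genes had 1 of 15 past the threshold, lower in KO (6.67%, against 5.44% of all genes in either direction and 2.96% lower), 4 above 0 and 11 below, with a median of -0.05. For the 9 V1 genes 8 lay below 0, at a median of -0.05. That median was 0.39 as deposited, 0.12 with median centring and -0.02 with loess. Relative to all genes it was -0.04, and turned to 0.05 as deposited and with median centring and to 0.01 with loess. Atp6v1b2 encodes the B2 isoform of the B subunit, which with the A subunit forms the ring that binds ATP. It was at 9.22, 9.24, 9.35 and 9.31 in KO and at 9.68, 9.73 and 9.60 in WT. The groups were well separated, with means of 9.28 ± 0.06 (SD, n = 4) and 9.67 ± 0.06 (SD, n = 3) and with each spread far below the difference. The difference was -0.39 (95% interval -0.58 to -0.19, limma adjusted p = 0.0397), or 0.764 of the WT level.

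This call depended on the scaling, on other settings and on each of the 7 samples. The deposited signals of Atp6v1b2 were 735.2, 688.4, 679.9 and 656.9 in KO and 801.9, 749.2 and 493.9 in WT, where WT 7, the dimmest array, was lowest, and the difference on that scale was 0.05 (limma adjusted p = 0.884). With loess it was again past the threshold, and with median centring it was -0.22 (limma adjusted p = 0.215). Leaving out any 1 sample kept the difference between -0.42 and -0.36, and limma adjusted p was then 0.0708 to 0.104. The call also ended at a like difference without a filter (-0.39, limma adjusted p = 0.0871). With the Actb ratio as a covariate the difference was -0.35 (limma adjusted p = 0.627). That ratio did not overlap between the groups and no gene at all passed in that fit, so it cannot single out this gene.

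Atp6v1d encodes subunit D of the rotor shaft and was at 11.73, 12.00, 11.96 and 11.99 in KO and at 12.11, 12.20 and 12.09 in WT. KO 4 stood below the other KO samples, and the groups did not overlap (-0.21 ± 0.10, limma adjusted p = 0.23; 0.14 as deposited). Atp6v1g1, a subunit of the peripheral stalks, was at 12.40, 12.44, 12.46 and 12.21 in KO and at 12.41, 12.68 and 12.51 in WT, with overlapping groups (-0.16 ± 0.11, limma adjusted p = 0.393). Subunit A, Atp6v1a, the partner of B2 in the ring, differed by -0.02 with a 95% interval of -0.29 to 0.25. The regulatory subunit H (Atp6v1h) was the 1 V1 gene above 0, at 0.19. Atp6v1c1, Atp6v1e1, Atp6v1f and Atp6v1g2 differed by -0.02, -0.03, -0.05 and -0.19.

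The 6 V0 genes were divided evenly around 0, with 3 above, 3 below, none past the threshold and a median of -0.02. Atp6v0b, subunit c'' of the proton-carrying ring, was at 11.20, 11.18, 11.35 and 11.09 in KO and at 11.32, 11.40 and 11.50 in WT. KO 6 lay above WT 5 and the other KO values below each WT value (-0.20 ± 0.10, limma adjusted p = 0.244; 0.18 as deposited). Atp6v0a2, an isoform of the large membrane subunit a, was at 7.48, 7.53, 8.11 and 7.76 in KO and at 7.13, 7.36 and 8.0 in WT. Number 6 in KO and number 7 in WT were high, and the groups overlapped (0.22 ± 0.23, limma adjusted p = 0.581). Atp6v0e2, an isoform of the small subunit e, was at 6.92, 7.19, 6.58 and 6.77 in KO and at 6.73, 7.28 and 6.91 in WT, also with overlap (-0.11 ± 0.18, limma adjusted p = 0.743). Atp6v0a1, Atp6v0d1 and Atp6v0e differed by -0.05, 0.02 and 0.01.

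**Figure D3:**
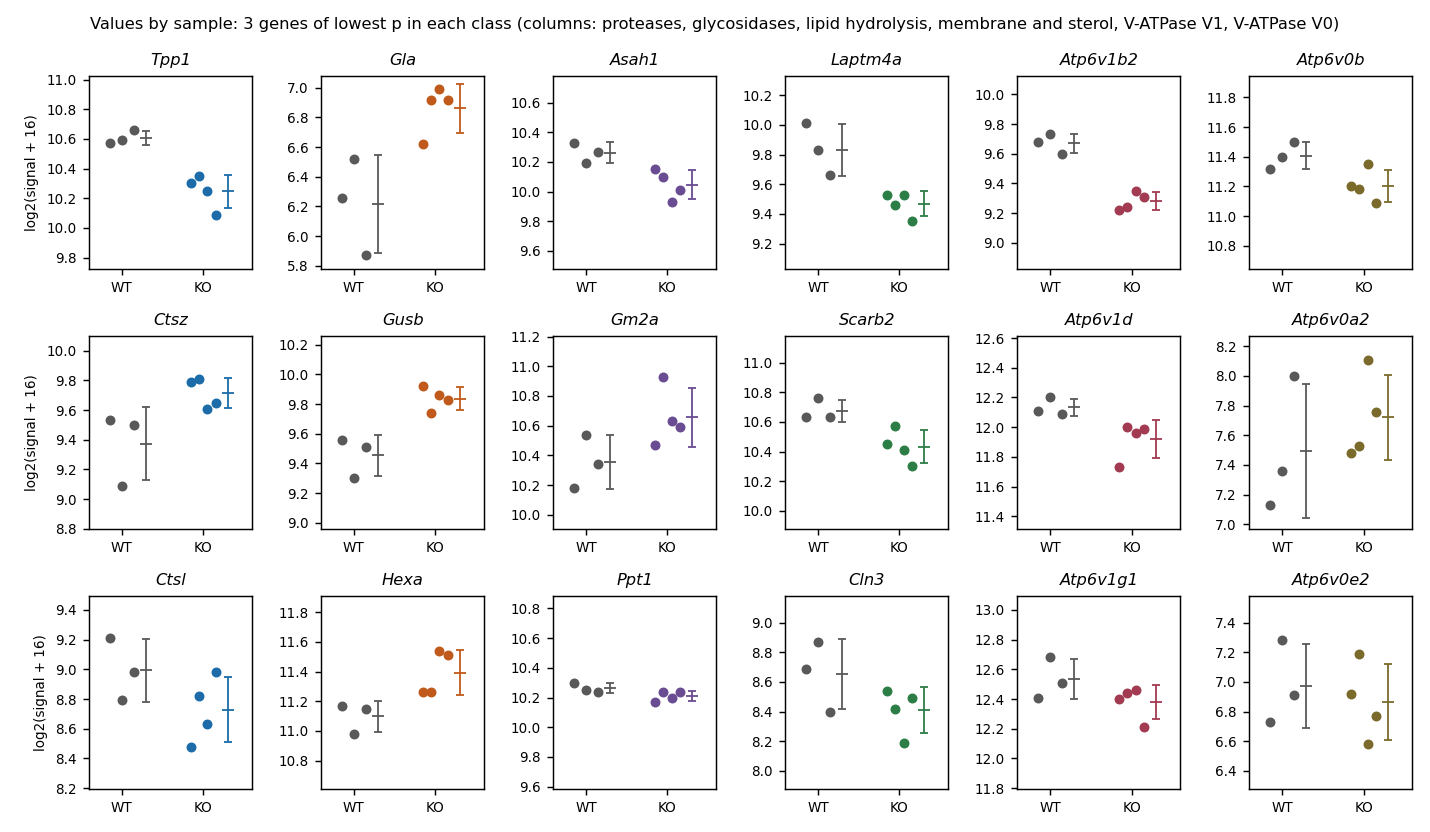
Log2(signal + 16) after quantile normalization in each of 3 WT (grey) and 4 KO (coloured) samples for the 3 genes of lowest p in each class, with the mean and SD beside the points and an axis of its own for each gene. Points of Atp6v1b2, Tpp1, Laptm4a, Asah1, Scarb2 and Atp6v1d are lower in each KO sample and those of Gla, Gusb, Hexa and Ctsz higher, while as deposited the first 6 have differences above 0.

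The samples were also set beside each other by the median deviation of a class of genes from each gene's own mean. Over all 46 genes it lay between -0.06 and 0.03 in KO and between 0.01 and 0.03 in WT, so the samples lay within a narrow band. For the glycosidases each KO sample was above 0 (0.03 to 0.07) and each WT sample below (-0.15 to -0.05), with WT 6 the lowest. For the V1 genes each KO sample was below 0 (-0.08 to -0.00) and each WT sample above (0.01 to 0.08) in the quantile scale. In the other scalings the V1 difference relative to all genes lay above 0, at 0.01 to 0.05. The position of each class rests on the brightest probe set of each gene. The proteases did not separate, since WT 5 was at 0.17 and WT 6 at -0.11. No test was made on these values, because the genes were chosen with results of these data known.

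**Figure D4:**
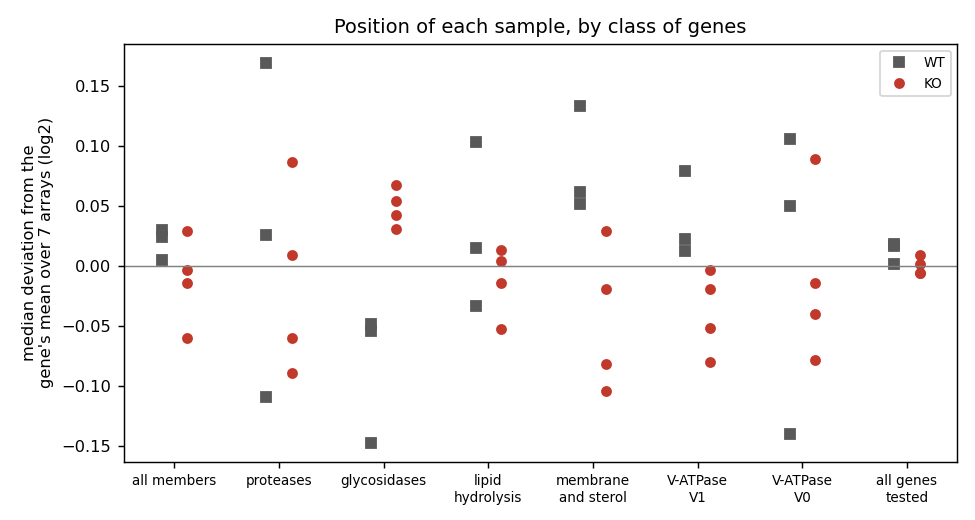
Median deviation of each class of genes from the gene's mean over 7 arrays, in log2 units after quantile normalization, with 1 point per sample (WT grey squares, KO red circles). KO and WT separate for glycosidases (KO 0.03 to 0.07, WT -0.15 to -0.05), for V1 and for membrane and sterol genes, and they overlap in proteases and V0. KO is on the lower side for V1 and for membrane and sterol genes. That side turns in the signals as deposited, and for V1 also with median centring. Each gene is read by its brightest probe set, and further probe sets of glycosidases and of membrane and sterol genes lay on both sides of 0.

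Several genes had more than 1 probe set, which gave a second reading of the same transcript. The 50 genes held 93 probe sets, 24 genes had a single one, and 23 of the tested genes had several above the filter. Of their 33 further probe sets 14 (42.4%) had the sign of the brightest and 19 the opposite sign, against 2740 of 4371 (62.7%) with the same sign over all genes tested. Many of these differences were close to 0. Ctsz agreed in its 3 probe sets, at 0.34, 0.48 and 0.61, each without overlap of the groups (exact permutation p = 0.0286 for each). Gusb gave 0.38 and 0.57, both without overlap, and Gm2a 0.30 and 0.80, the second without overlap. Atp6v1d gave -0.21, -0.19 and -0.18, all without overlap.

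Other genes had probe sets that disagreed. Scarb2 had a brighter probe set at -0.24 and a dimmer one at 0.33, neither with overlap, so no direction can be given for it. Atp6v0a1 had -0.05 in the brightest and 0.87 in the next, in which KO and WT did not overlap. Man2b1 gave 0.14 and -0.49, Fuca1 0.01 and -0.29, Ctsb 0.09 and -0.37, and Atp6v1c1 -0.02 and 0.36, where the second value of each pair was without overlap. Tpp1 had a second probe set of nearly the same brightness at -0.12, with overlap. For Atp6v1b2 both further probe sets lay below the filter, at 0.14 and 0.13 with overlapping groups, so its call rests on 1 probe set. Of the 46 probe sets used, 7 end in _s_at or _x_at, array classes whose probes can match related transcripts: those of Gaa, Lamp2, Laptm5, Mcoln1, Ctsz, Atp6v0b and Atp6v1e1.

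**Figure D5:**
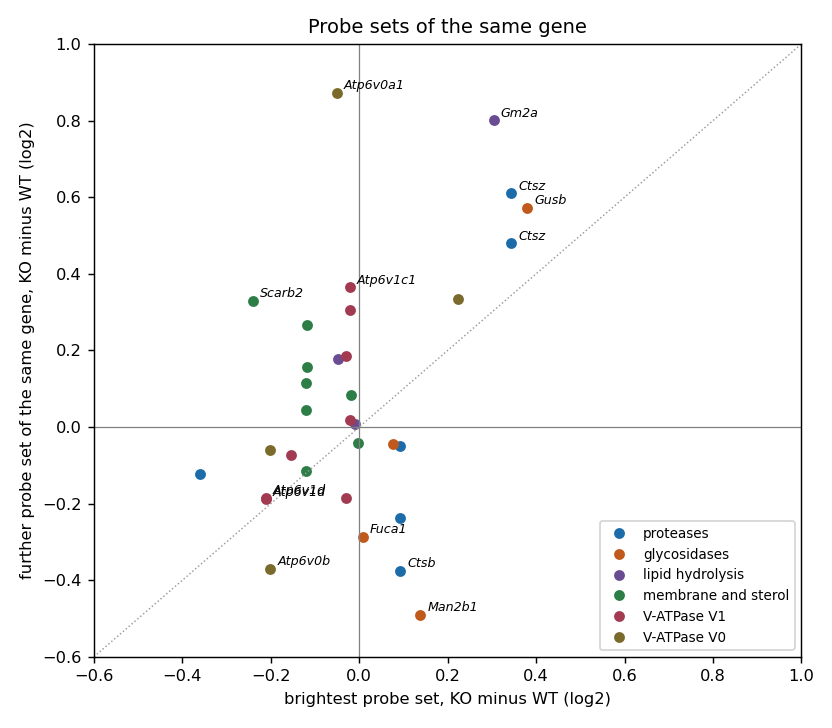
Difference (KO minus WT, log2) of the brightest probe set of a gene on the horizontal axis and of each further probe set above the filter on the vertical axis, for 33 further probe sets of 23 genes, coloured by class, with a dotted line of equality. Ctsz, Gusb and Gm2a lie above 0 on both axes and Atp6v1d below 0 on both (in the quantile scale), while 19 of 33 points have opposite signs, among them Scarb2 and Atp6v0a1.

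Other lysosomal genes outside the set were counted in the same way, as 130 genes in 7 lists. Of the 90 tested, none rose and 4 fell, with a median of -0.08 and 58 below 0. The share that fell was 4.44%, against 2.96% of all genes that fell and 5.44% called in either direction. Among 22 other hydrolases, with a median of -0.17, Ctsw fell, the cathepsin of cytotoxic lymphocytes. It was at 7.72, 7.49, 7.55 and 7.48 in KO and at 8.14, 8.01 and 7.94 in WT (-0.47 ± 0.10, limma adjusted p = 0.0369). Lipa, the lysosomal acid lipase, was next at -0.43 (limma adjusted p = 0.0601).

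Among 21 other membrane genes, with a median of -0.12, Ctns and Cd1d1 fell. Ctns, the cystine exporter, was at 5.52, 5.56, 5.23 and 5.45 in KO and at 6.01, 6.01 and 6.11 in WT (-0.61 ± 0.11, limma adjusted p = 0.0245). Its KO mean of 5.44 lay below the filter threshold of 5.54, so Ctns was tested only through its higher WT values. With the 60th percentile filter Ctns was not among the genes past the threshold. Cd1d1, which presents lipids loaded in lysosomes, was at 11.39, 11.38, 11.40 and 11.20 in KO and at 11.76, 11.75 and 11.69 in WT (-0.39 ± 0.09, limma adjusted p = 0.0456). Both were separated from WT in each sample.

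In the list of Ragulator, Rag and folliculin genes, which link the lysosome to mTORC1, 1 of 9 fell (11.1%, against 2.96% of all genes that fell), with a median of -0.01. Flcn encodes folliculin, the activator of RagC and RagD. It was at 10.71, 10.70, 10.78 and 10.74 in KO and at 11.31, 11.27 and 11.20 in WT (-0.53 ± 0.08, limma adjusted p = 0.0211), by a probe set ending in _x_at. Its spread within each group was small against the difference. Lamtor2, a Ragulator subunit, had 0.49 with overlapping groups (limma adjusted p = 0.105). As deposited none of Ctsw, Ctns, Cd1d1 and Flcn passed, and 6 other genes of these lists passed upward. With median centring Ctns passed, together with Lamtor2 upward, and the other 3 did not, and Cd1d1 also missed the threshold with a pseudocount of 1 and with loess. Without a filter none of the 4 passed. With the Actb ratio as a covariate none passed either, in a fit where no gene at all did. When 1 sample was left out, Flcn still passed without KO 4, KO 5 or KO 6 (3 of 7 fits) and Ctns without KO 5 or KO 6 (2 of 7), while Ctsw and Cd1d1 passed in 0 of 7.

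The remaining lists had no gene past the threshold. Of the MiT/TFE factors, Tfeb was at 6.48, 6.19, 6.50 and 4.93 in KO and at 6.69, 6.43 and 6.51 in WT, with KO 7 far below the rest (-0.52 ± 0.35, limma adjusted p = 0.395). Tfec and Mitf differed by -0.05 and -0.03. Sorting by mannose phosphate, which brings hydrolases to the lysosome, had 16 genes with a median of -0.00. Its adaptors of lowest p were Gga2 at 0.32 (limma adjusted p = 0.11) and Gga1 at -0.60 (limma adjusted p = 0.169). The HOPS complex and fusion genes had 12 with a median of -0.12, led by Vps18 at 0.56 (limma adjusted p = 0.163) and Vps39 at -0.36 (limma adjusted p = 0.201). The V-ATPase accessory genes had 7 with a median of -0.03, led by Dmxl1 at -0.39 (limma adjusted p = 0.242) and Rogdi at 0.19 (limma adjusted p = 0.409).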

How the data were processed

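RNA from 7 samples of sorted LSK cells was amplified and hybridised to Affymetrix arrays, 1 per sample. The labels name a larger mouse design than the number of probe sets and the annotation show, so gene counts refer to the deposited table. The authors deposited linear signal intensity values for each probe set and sample, made with MAS5 per the submitters' processing notes. Its version and scaling target: not given in the sources used here. Of 22690 probe sets, 64 were controls and 20393 had 1 gene symbol in the platform annotation. No detection calls were used; the background level of 13.64 signal units is the 95th percentile over 27 control probe sets for bacterial genes, taken here as absent from the samples.

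The intensity + 16 was put on a log2 scale and quantile-normalized over the 7 arrays. Probe sets above the 40th percentile of the mean were kept, with the brightest per gene. The genotypes were compared by lmFit and eBayes of limma (version 3.58.1, R version 4.3.3), with genotype as the only term, 5 residual degrees of freedom and Benjamini-Hochberg adjustment over 8077 genes. The fit was tested on simulated data. For single values an exact permutation test, two-sided on the absolute mean difference, used the 35 possible assignments, with a smallest p of 0.0286. Fold changes on this scale are understated for dim genes. The number of arrays limits the precision.

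The genes and lists were chosen with earlier results of these data known. Values in each sample are given for genes past the threshold and the 3 of lowest p per class; from the other lists, genes past the threshold and the 2 of lowest p are named. Cd68 stands both in the list of other membrane genes and in that of monocytes and macrophages. Promoter sequence is from RefSeq (GRCm38.p6), with chromosome 18 left out. Alternatives covered the pseudocount, the scaling, the filter, the use of several probe sets, the replicate number, the Actb ratio and leaving out each sample.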

Additional observations from a re-analysis of the deposited data

Results flagged for a closer look

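In groups of 4 samples, the gap between the highest or lowest value and its neighbour was set against the range and held to Dixon's 95% critical value, which chance exceeds in about 1 in 20 groups. In KO this flagged 3 of the 46 lysosomal genes. Laptm5 stood out at 0.902, with KO 6 at 13.25 and the other KO samples at 13.08 to 13.09. Manba stood out at 0.893, with KO 6 at 9.10 and the others at 8.79 to 8.82. Atp6v1d stood out at 0.833, with KO 4 at 11.73 and the others at 11.96 to 12.00. Of the further lysosomal genes only Tfeb, Ctsw, Ctns, Cd1d1 and Flcn were examined in this way, and the rest were not. Among them Cd1d1 stood out at 0.911, with KO 7 at 11.20 and the others at 11.38 to 11.40.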

How the results depend on the processing

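Of the 46 lysosomal genes 1 passed the threshold, and it passed again with a pseudocount of 1 and with cyclic loess. The mean of all probe sets leaves this gene as it is, since its further probe sets lie below the filter. With a pseudocount of 64 there were 4 (Gusb and Gla up, Tpp1 and Atp6v1b2 down) and with the 60th percentile filter also 4 (Gusb up, Tpp1, Laptm4a and Atp6v1b2 down), beside 8.67% and 12.1% of all genes. The count was 7 as deposited and 3 with median centring, and 0 without a filter. The V-ATPase count was 0 with median centring and 0 without a filter, and the count in the other lysosomal lists was 2 (Lamtor2 up, Ctns down) and 0. With the Actb ratio as a covariate the counts were 0, 0 and 0, and no gene at all passed in limma, while 713 genes and 1 lysosomal gene had an unadjusted p under 0.05. The median difference of the 46 genes was 0.391 as deposited, 0.123 with median centring and 0.0686 with the covariate. In the signals as deposited Atp6v1b2 was at 0.0461, the marker lists of LSK cells and megakaryocytes at 0.06 and 0.00334 (turned from -0.31 and -0.33), granulocytes at -0.99 and monocytes and macrophages at 0.252. The cause of these shifts was not tested.

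Leaving out each sample in turn gave 0 to 0 lysosomal genes past the threshold, 0 to 0 V-ATPase genes and 0 to 3 genes of the other lists, beside 45 to 195 calls over all genes. Flcn passed in 3 of the 7 fits, Ctns in 2, and Ctsw and Cd1d1 in 0. The median of the 46 genes was -0.0554 to -0.00257, and the number without overlap 11 to 17 (23.9% to 37.0%, against 27.6% to 34.7% of all genes in the same fits), with 17 and 34.7% without WT 5. Numbers 5 to 7 occur in both groups, and the deviations of same-numbered samples correlated at 0.0292, 0.0988 and 0.0505. Pairs of unlike number ran from -0.0705 to 0.0659 and were mostly below 0. Whether same-numbered samples were handled together cannot be told from these values, and the main fit leaves the number out. With the replicate block the counts were 0, 0 and 0, with 1 call over all genes, and Atp6v1b2 was at -0.369 (limma adjusted p = 0.161). Over all lysosomal genes and settings, 16 values gained a call, 11 lost one, and 1 that was called (Atp6v1b2) changed sign. Values past the threshold in neither setting were compared by size and not by sign: 105 moved by more than their error, among them many that turned positive as deposited.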
